A study of Mus musculus with 6 samples.

Results

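Apolipoproteins and the proteins that load them with lipid decide how much fat and cholesterol the liver exports and how the particles fare in blood. The transcripts described here are those of 10 genes chosen by symbol: Apoa1, Apoa2, Apoa4, Apoa5, Apob, Apoc1, Apoc3, Apoe, Mttp and Lcat. Each symbol matched 1 record among the 43346 genes of the deposited count table. Total RNA of whole mouse liver was sequenced in 6 libraries. In 3 of them, numbered 2, 3 and 2600, the mice carried an shRNA against S100a11 and were on the FFC diet, under a label that calls the genotype a knockdown. In the other 3, numbered 28, 30 and 31, they carried a scrambled shRNA on the same diet, under the label control. Both groups therefore shared the diet, a dietary model of metabolic dysfunction-associated steatohepatitis, and the AAV8 vector, an adeno-associated virus used to reach hepatocytes. The sources used here do not give strain, sex, age, dose, time on diet or the promoter of the vector. The labels do not say that each library is a separate animal, and p-values then speak of the spread between these samples alone, which may be technical.

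Hepatocytes secrete triglyceride in very low density lipoprotein, a particle built around a single molecule of apolipoprotein B that microsomal triglyceride transfer protein loads with lipid in the endoplasmic reticulum. High density lipoprotein forms instead around apolipoproteins A-I and A-II, and lecithin-cholesterol acyltransferase esterifies the cholesterol it collects. Smaller exchangeable apolipoproteins move between particles, where those of the C group and A-V steer lipolysis in blood and apolipoprotein E is the ligand that returns remnants to hepatic receptors.

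Of the 10 genes, 2 rose and 1 fell in the S100a11 shRNA libraries. Lcat was 1.98-fold higher, Mttp 1.53-fold higher and Apoa4 2.38-fold lower. These calls are from edgeR's quasi-likelihood test at a Benjamini-Hochberg adjusted p under 0.05 over 19352 tested genes, of which 14.1% passed, 5.82% upward and 8.28% downward. The other 7 genes had log2 fold changes between 0.25 and 0.71 with adjusted p between 0.059 and 0.52. By sign alone 9 of the 10 were higher with TMM scaling and 7 with library totals alone, and 4 had an unadjusted p under 0.05, as did 29.7% of all tested genes. The median log2 fold change of the 10 genes was 0.39, beside 0.04 over all tested genes. On the TMM scale the groups did not overlap in CPM for 6 genes that were higher and 1 that was lower. Over all tested genes 34.7% did not overlap, 16.5% upward and 18.1% downward. By share of all counts in a library, however, Apoa1, Apoa2 and Apoe overlapped between the groups. CPM are counts scaled to a common library size, taken as the library total times edgeR's TMM factor. All 10 genes passed the filter on low counts, with 5474 to 1365007 counts per gene and library. In bulk liver, a change in the number of cells of a type and a change in RNA per cell cannot be told apart.

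The libraries held 53517387 to 78091845 counts over genes. S100a11, the target, stood at 16, 3.55 and 3.41 CPM in S100a11 shRNA libraries 2, 3 and 2600 and at 15.9, 22.9 and 30.0 CPM in scrambled libraries 28, 30 and 31, so the library labelled S100a11 shRNA 2 lay at the level of the lowest scrambled one. Its log2 fold change of -1.57 ± 0.56 (SE) was not called (edgeR adjusted p = 0.095; exact two-sided permutation p = 0.2, where 0.1 is the smallest that 3 against 3 allow), and every direction here is that of the libraries as labelled. A single non-coding gene, Gm26917, held between 3.99% and 10.8% of counts in the S100a11 shRNA libraries and between 3.16% and 4.42% in the scrambled ones. TMM factors were 0.822 to 0.932 in the S100a11 shRNA libraries and 1.10 to 1.19 in the scrambled libraries. The 2728 genes called, 1126 higher and 1602 lower, became 816 higher and 1980 lower with upper-quartile factors, and 397 higher and 3970 lower with library totals alone. The median of all genes was -0.32 on that last scale, where 22.6% of genes were called, and the part of Gm26917 in any result was not tested. Defining hepatocyte genes stood high in every library. On the TMM scale 10 markers summed to between 45882 and 57748 CPM in the S100a11 shRNA libraries and between 37106 and 45122 CPM in the scrambled ones. The gap between the groups in this sum depends on that scaling.

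**Figure D1:**
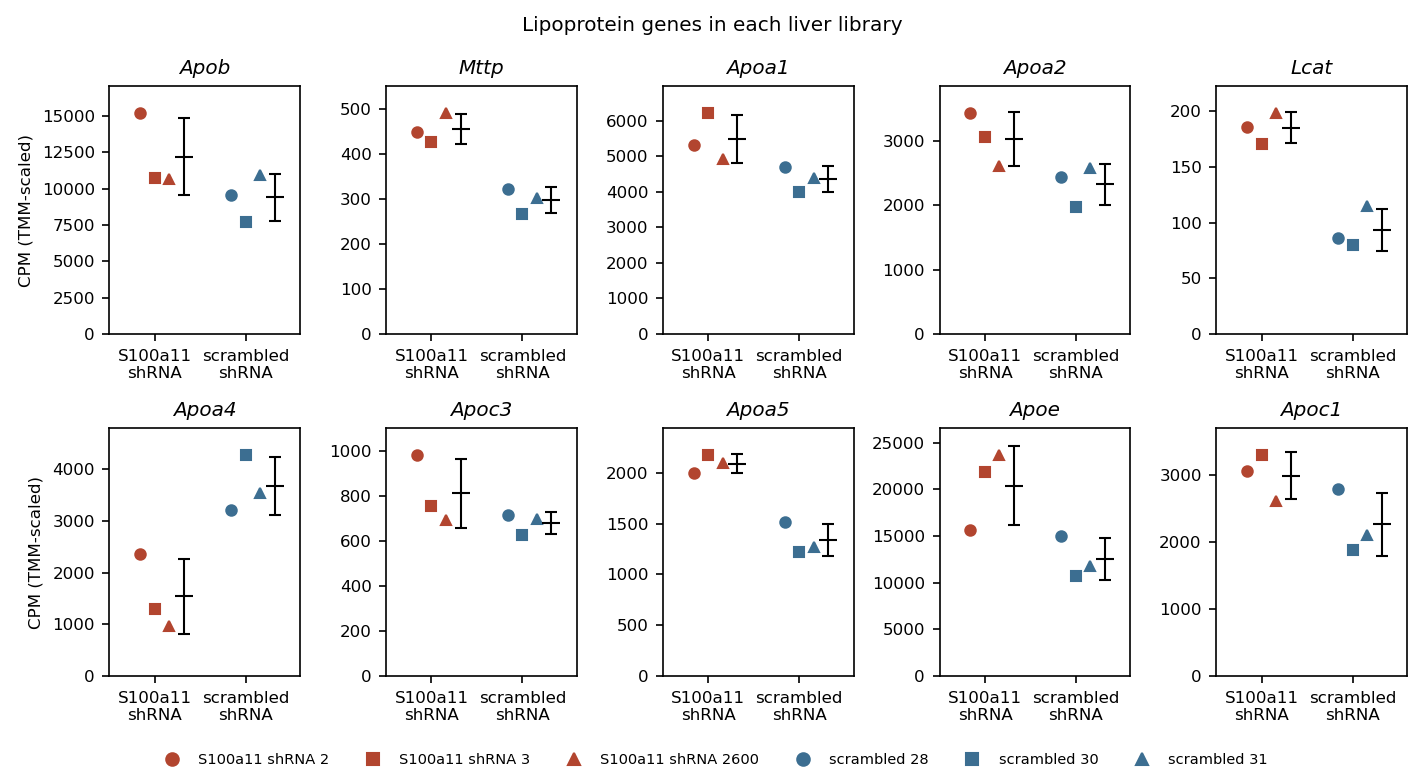
CPM (TMM-scaled) of each gene in every library, with S100a11 shRNA left of scrambled shRNA; bars are the mean and SD of 3 libraries, and marker shapes tell the libraries of a group apart and pair none of them. Lcat and Mttp lie higher and Apoa4 lower in all S100a11 shRNA libraries than in any scrambled library.

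Apob (ENSMUSG00000020609, plus strand of chromosome 12, 7977648 to 8016835 in mm10) encodes the structural protein of very low and low density lipoproteins. It stood at 15227, 10742 and 10647 CPM in S100a11 shRNA libraries 2, 3 and 2600, against 9530, 7726 and 10924 CPM in scrambled libraries 28, 30 and 31. Library 2 was the highest, and scrambled library 31 lay above S100a11 shRNA libraries 3 and 2600, so the groups overlapped. The log2 fold change of Apob was 0.38 ± 0.35 (SE, edgeR adjusted p = 0.52), and 0.03 with library totals alone.

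Mttp (ENSMUSG00000028158, minus strand of chromosome 3, 138089855 to 138143388 in mm10) encodes the large subunit of the transfer protein that lipidates apolipoprotein B. Mttp had 448, 427 and 491 CPM in S100a11 shRNA libraries 2, 3 and 2600, against 323, 267 and 303 CPM in scrambled libraries 28, 30 and 31. Every S100a11 shRNA library was above every scrambled library, and library 2, in which S100a11 was not low, lay between libraries 3 and 2600. Mttp averaged 455 ± 33.0 CPM in S100a11 shRNA and 297 ± 28.3 CPM in scrambled libraries (SD, n = 3 each) and rose by 0.61 ± 0.15 (SE) on the log2 scale (edgeR adjusted p = 0.028). Leaving out library 3, 2600, 28, 30 or 31 ended the call (adjusted p = 0.062, 0.065, 0.065, 0.13 and 0.096), with log2 fold changes of 0.54 to 0.68. Scaled by library totals alone it was 0.25 (adjusted p = 0.21), or 0.57 above the median of all genes on that scale. The neighbouring gene Trmt10a overlaps Mttp on the other strand in the annotation and held 1.09% to 1.88% as many counts.

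Apoa1 (ENSMUSG00000032083) encodes the main protein of high density lipoprotein and the activator of its cholesterol-esterifying enzyme. It stood at 5310, 6224 and 4910 CPM in S100a11 shRNA libraries 2, 3 and 2600, against 4707, 3995 and 4381 CPM in scrambled libraries 28, 30 and 31. The groups did not overlap, but the gap of the nearest libraries was small, and the log2 fold change of 0.33 ± 0.26 (SE) was not called (edgeR adjusted p = 0.44). With library totals alone it was -0.02. By share of all counts the groups overlapped, at 0.404% to 0.557% in S100a11 shRNA and 0.476% to 0.518% in scrambled libraries. Apoa2 (ENSMUSG00000005681, plus strand of chromosome 1, 171225054 to 171226379 in mm10), the companion protein of the same particle, had 3436, 3055 and 2599 CPM in the same S100a11 shRNA libraries, against 2433, 1968 and 2575 CPM in the scrambled ones. Its lowest S100a11 shRNA library, 2600, lay barely above the highest scrambled one, 31, in CPM. By share of all counts library 2600, at 0.214%, lay below every scrambled library (0.235% to 0.286%). The log2 fold change of 0.38 ± 0.23 was not called (edgeR adjusted p = 0.31), and it was 0.03 with library totals alone.

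Lcat (ENSMUSG00000035237, minus strand of chromosome 8, 105939551 to 105943382 in mm10), whose product turns free cholesterol on these particles into cholesteryl ester, showed the clearest rise among the 10 genes, with the smallest adjusted p. Lcat had 186, 171 and 199 CPM in S100a11 shRNA libraries 2, 3 and 2600, against 85.9, 79.6 and 115 CPM in scrambled libraries 28, 30 and 31. The groups lay well apart, with scrambled library 31 the highest of its group. Here too library 2, in which S100a11 was not low, lay between libraries 3 and 2600. Lcat averaged 185 ± 13.9 CPM in S100a11 shRNA and 93.5 ± 19.0 CPM in scrambled libraries (SD, n = 3 each), with a log2 fold change of 0.99 ± 0.17 (SE, edgeR adjusted p = 0.0087). The call held when each library was left out in turn (log2 0.88 to 1.16, adjusted p 0.0048 to 0.048) and with library totals alone (log2 0.63, adjusted p = 0.021). An antisense gene in the same place, Gm16156, held at most 0.221% as many counts.

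Apoa1, Apoc3, Apoa4 and Apoa5 lie in 43.34 kb of chromosome 9 (mm10), and Apoa4 alone of the 4 was lower in the S100a11 shRNA libraries with TMM scaling, while with library totals alone Apoa1 and Apoc3 lay at log2 -0.02 and -0.09. Apoa1 runs from 46228580 to 46230466 on the plus strand, Apoc3 from 46232933 to 46235636 on the minus strand, Apoa4 from 46240696 to 46243459 and Apoa5 from 46268633 to 46271919, both on the plus strand. Stretches just before the starts of Apoa4, Apoa1 and Apoa5 are shown, of 102, 200 and 250 bases. Because these lengths differ, the presence or absence of a motif cannot be compared between the genes. The stretches were cut from RefSeq windows of GRCm38.p6 that span 250 bases before to 50 after a start, ending before both the RefSeq and the deposited start. Capitals mark matches to any of 4 searched motifs, on either strand.

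Apoa4 (chr9:46240594-46240695, plus strand): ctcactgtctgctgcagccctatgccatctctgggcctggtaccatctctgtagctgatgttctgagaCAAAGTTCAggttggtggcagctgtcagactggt
Apoa1 (chr9:46228380-46228579, plus strand): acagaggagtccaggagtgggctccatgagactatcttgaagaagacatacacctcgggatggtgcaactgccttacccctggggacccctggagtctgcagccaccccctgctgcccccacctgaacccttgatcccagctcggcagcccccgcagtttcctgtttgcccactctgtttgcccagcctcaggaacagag
Apoa5 (chr9:46268358-46268607, plus strand): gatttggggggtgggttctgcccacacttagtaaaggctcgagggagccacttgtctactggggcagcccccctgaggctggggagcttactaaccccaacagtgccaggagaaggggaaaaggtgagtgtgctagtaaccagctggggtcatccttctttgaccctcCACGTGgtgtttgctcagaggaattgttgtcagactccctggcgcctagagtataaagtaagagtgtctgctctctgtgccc

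The motifs were CAAAGTNCA (bound by HNF4 factors), AGGTCA (the core site of nuclear receptors), CACGTG (the E-box of basic helix-loop-helix factors) and TGTTTAC (bound by forkhead factors). Apoa4 held the first, 182 bases before its RefSeq start, and Apoa5 the E-box, whose letters read the same on both strands, 82 bases before its own. The stretch before Apoa1 matched none of the 4. Among 32851 mouse windows of 300 bases the motifs occurred in 1.41%, 16.3%, 7.15% and 3.65%, in the order given. By symbol 8 of the 10 genes had a window, 12 windows in all, and no match of one motif overlapped that of another. Apoc1 and Apoc3 had no entry. These are matches of letters and no evidence of binding.

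Apoa4 (ENSMUSG00000032080) encodes an apolipoprotein of chylomicrons and high density lipoprotein that mouse liver as well as intestine makes. It stood at 2364, 1305 and 968 CPM in S100a11 shRNA libraries 2, 3 and 2600, against 3204, 4285 and 3536 CPM in scrambled libraries 28, 30 and 31. All S100a11 shRNA libraries were below all scrambled ones, and library 2, in which S100a11 was not low, lay nearest to them. Apoa4 averaged 1546 ± 728 CPM in S100a11 shRNA and 3675 ± 554 CPM in scrambled libraries (SD, n = 3 each) and fell by 1.25 on the log2 scale (SE 0.34, edgeR adjusted p = 0.043). Without library 2 the log2 fold change was -1.73 (adjusted p = 0.0027). Without library 3, 2600, 28, 30 or 31 the gene was not called (adjusted p = 0.15, 0.096, 0.075, 0.14 and 0.10), with log2 fold changes between -1.34 and -1.01. Scaled by library totals alone Apoa4 fell by 1.59 (adjusted p = 0.014). Its antisense neighbour Gm10680 held 0.159% to 0.270% as many counts. Of 7 enterocyte markers, Alpi, Cdx1, Cdx2 and Sis had 0 counts in every library, and Lct and Muc2 lay under 1 CPM. The seventh, Fabp2, a fatty acid binding protein gene, stood at 85.7, 70.8 and 47.3 CPM in S100a11 shRNA libraries 2, 3 and 2600, against 52.1, 37.2 and 58.2 CPM in scrambled libraries 28, 30 and 31 (edgeR adjusted p = 0.23).

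Apoc3 (ENSMUSG00000032081) encodes an inhibitor of lipoprotein lipase and of remnant clearance and lies between Apoa1 and Apoa4. It had 984, 757 and 695 CPM in S100a11 shRNA libraries 2, 3 and 2600, against 718, 625 and 699 CPM in scrambled libraries 28, 30 and 31. The groups overlapped, since library 2600 was within the scrambled range, and the log2 fold change of 0.25 ± 0.19 (SE) was not called (edgeR adjusted p = 0.40). It was -0.09 with library totals alone.

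Apoa5 (ENSMUSG00000032079) encodes an apolipoprotein of low abundance that speeds the removal of plasma triglyceride. It stood at 1998, 2181 and 2099 CPM in S100a11 shRNA libraries 2, 3 and 2600, against 1515, 1225 and 1275 CPM in scrambled libraries 28, 30 and 31. The S100a11 shRNA libraries lay close together and all above the scrambled ones. The log2 fold change of 0.64 ± 0.20 (SE) missed the threshold (edgeR adjusted p = 0.059). It passed with DESeq2 (adjusted p = 0.00041), limma voom (0.030), no filter on counts (0.034), a robust prior (0.037) and the legacy form of the quasi-likelihood test (0.038), and without library 2 (0.044). Apoa5 did not pass with RLE factors (edgeR adjusted p = 0.057), upper-quartile factors (0.086), TMM without the 20 most abundant genes (0.059) or a filter at 1 CPM (0.052). Nor did it pass without library 3, 2600, 28, 30 or 31 (0.089 to 0.20). Its log2 fold change with library totals alone was 0.29 (adjusted p = 0.26).

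**Figure D2:**
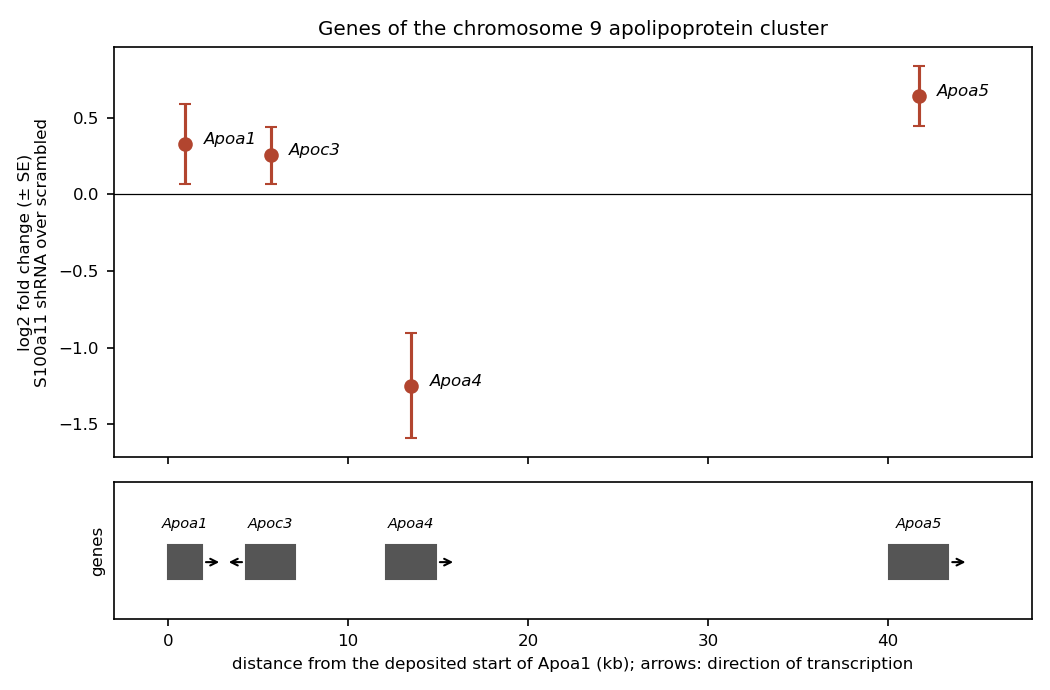
Upper panel: log2 fold change of the 4 chromosome 9 genes, S100a11 shRNA over scrambled shRNA, at each gene's centre, with SE bars from edgeR. Lower panel: gene bodies and direction of transcription by distance from the start of Apoa1, in kb; Apoa4, at -1.25, is the one gene below 0 with this TMM scaling, while library totals alone put Apoa1 and Apoc3 at -0.02 and -0.09.

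Ratios of counts inside a library do not depend on the scaling, and were taken as a description with no test. The ratio of Apoa4 to Apoa1 was 0.445, 0.210 and 0.197 in S100a11 shRNA libraries 2, 3 and 2600, against 0.681, 1.07 and 0.807 in the scrambled ones, 28, 30 and 31. It was thus 3.18-fold lower in the S100a11 shRNA libraries by mean log2 ratio, without overlap. Apoa4 made up 22.2%, 12.5% and 11.2% of the counts of the 4 cluster genes in the S100a11 shRNA group, against 31.6%, 42.3% and 35.7% in the scrambled group. The ratio of Apoa5 to Apoa1 was 0.376, 0.350 and 0.427 in S100a11 shRNA and 0.322, 0.307 and 0.291 in scrambled libraries, higher in every S100a11 shRNA library. Lcat to Apoa1 also lay higher without overlap, by 0.68 in mean log2 ratio. The nearest libraries were close, with 0.0275 in S100a11 shRNA library 3 and 0.0263 in scrambled library 31. The ratios Apoc3 to Apoa1, Apoa2 to Apoa1, Apoc1 to Apoe and Mttp to Apob overlapped between the groups, with differences in mean log2 ratio of -0.08, 0.06, -0.28 and 0.24. Within each overlapping ratio the S100a11 shRNA libraries differed more among themselves than the scrambled ones: the SD of the log2 ratio of Apoc1 to Apoe was 0.42 in S100a11 shRNA and 0.04 in scrambled libraries, and that of Apoc3 to Apoa1 was 0.31 in S100a11 shRNA and 0.03 in scrambled libraries.

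**Figure D3:**
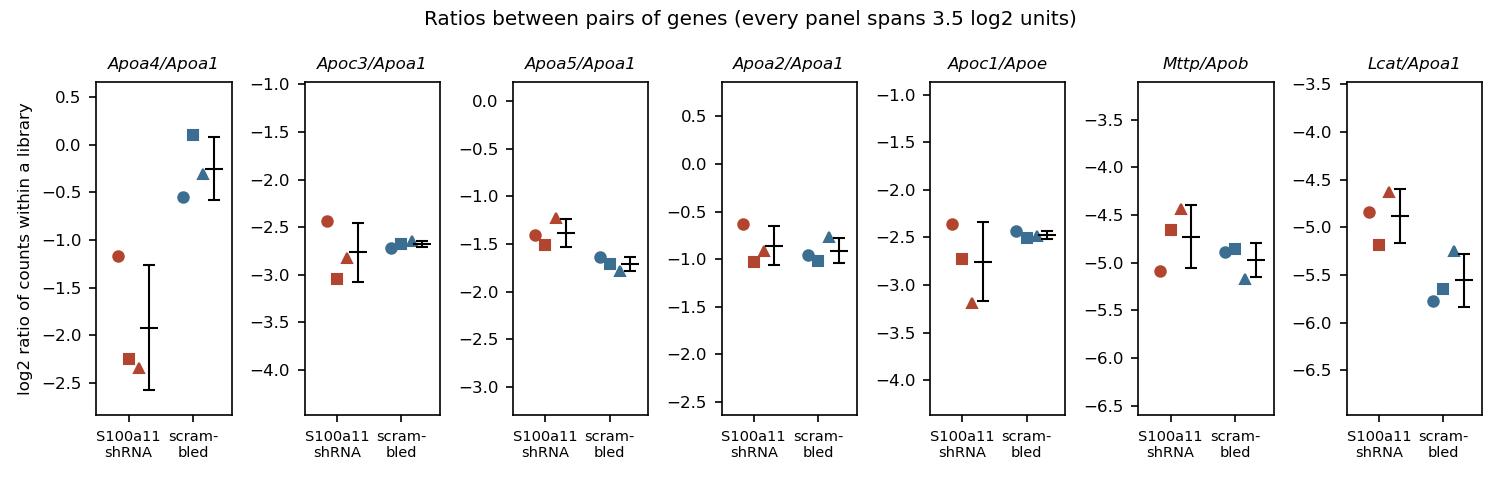
Log2 ratio of counts of gene pairs within each library, S100a11 shRNA left of scrambled shRNA, with the mean and SD of 3 libraries; every panel spans the same log2 range. Apoa4 to Apoa1 is lower, and Apoa5 to Apoa1 and Lcat to Apoa1 are higher, in all S100a11 shRNA libraries; the other ratios overlap.

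Apoe (ENSMUSG00000002985, minus strand of chromosome 7, 19696109 to 19699166 in mm10), the ligand through which hepatic receptors take up remnants, is made by hepatocytes and by macrophages. It stood at 15641, 21817 and 23713 CPM in S100a11 shRNA libraries 2, 3 and 2600, against 15026, 10708 and 11757 CPM in scrambled libraries 28, 30 and 31. In CPM libraries 3 and 2600 were far above the scrambled group, while library 2 was just above its highest member, 28. By share of all counts library 2, at 1.46%, lay below library 28, at 1.65%, so the groups overlapped. The log2 fold change of Apoe was 0.71 ± 0.40 (SE) and was not called by edgeR (adjusted p = 0.28), although DESeq2 called it (log2 0.70, adjusted p = 0.010). With library totals alone it was 0.34 (edgeR adjusted p = 0.45). Summed CPM of 10 resident macrophage markers lay between 324 and 720 in the S100a11 shRNA libraries and between 590 and 885 in the scrambled ones. For 10 recruited macrophage markers the sums were 104 to 202 in S100a11 shRNA and 566 to 684 in scrambled libraries. The part of either macrophage type in the level of Apoe was not tested.

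Apoc1 (ENSMUSG00000040564, minus strand of chromosome 7, 19689484 to 19692658 in mm10) lies next to Apoe on chromosome 7, with 3450 bases between the 2 genes, and encodes a small protein that restrains lipolysis and remnant uptake. It had 3060, 3303 and 2606 CPM in S100a11 shRNA libraries 2, 3 and 2600, against 2793, 1884 and 2108 CPM in scrambled libraries 28, 30 and 31. Scrambled library 28 lay above library 2600, so the groups overlapped, and the log2 fold change of 0.40 ± 0.24 (SE) was not called (edgeR adjusted p = 0.31). With library totals alone it was 0.05.

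**Figure D4:**
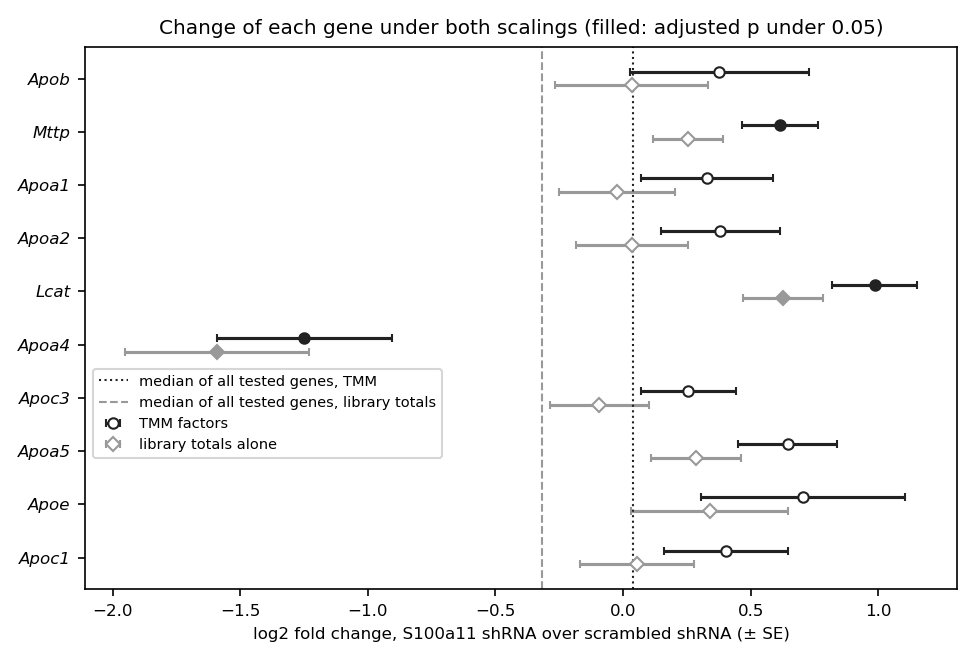
Log2 fold change of each gene, S100a11 shRNA over scrambled shRNA, with its SE, under TMM factors (black circles) and library totals alone (grey diamonds); filled symbols passed an adjusted p of 0.05 and vertical lines are the medians of all tested genes. Lcat and Apoa4 are filled under both scalings and Mttp under TMM.

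Per kilobase of annotated exon, the 10 transcripts ran over a wide range in both groups. Apoe led, at 9537 ± 1974 CPM per kb in S100a11 shRNA and 5845 ± 1053 in scrambled libraries (SD, n = 3 each). Apoa2, Apoa1 and Apoc1 came next, at means of 5642, 4435 and 4018 CPM per kb in S100a11 shRNA libraries and 4330, 3528 and 3040 in scrambled ones. Within every library these 3 kept that order by this length, though neighbours among them overlapped between libraries of a group. The range of Apoe lay above theirs in both groups. Apob, Apoa4, Apoa5 and Apoc3 formed an overlapping group in the S100a11 shRNA libraries, at 876, 852, 830 and 801 CPM per kb. In scrambled libraries Apoa4 stood clear of that group at 2025 CPM per kb, against 674 for Apob, 671 for Apoc3 and 531 for Apoa5. Lcat, at 138 CPM per kb in S100a11 shRNA and 69.7 in scrambled libraries, and Mttp, at 73.4 in S100a11 shRNA and 47.9 in scrambled libraries, were lowest. Other length definitions changed the order. With the longest transcript Apoc3 averaged 1145 CPM per kb in S100a11 shRNA libraries, above Apob, Apoa4 and Apoa5, and no longer overlapped Apoa5 there. By that length Apoc1 averaged 5620 and Apoa1 5296 CPM per kb in S100a11 shRNA libraries, and Mttp 75.0 and Lcat 69.7 in scrambled ones.

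Together the 10 genes made up 4.54%, 4.48% and 4.02% of all counts in S100a11 shRNA libraries 2, 3 and 2600, against 4.44%, 3.91% and 4.18% in the scrambled ones, 28, 30 and 31. Those shares overlapped. On the TMM scale their sum was 48652, 49982 and 48927 CPM in S100a11 shRNA libraries, against 40334, 32761 and 37675 CPM in scrambled ones, without overlap. Whether the groups overlapped thus depended on the scaling. Apoe and Apob supplied 63.4% to 70.2% of the counts of the 10 genes in S100a11 shRNA libraries and 56.3% to 60.9% in scrambled ones. Apoa4 supplied 1.98% to 4.86% in S100a11 shRNA libraries and 7.94% to 13.1% in scrambled ones.

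Markers of some other liver cells moved with the groups, while over all tested genes 5.82% rose and 8.28% fell. Of 10 recruited macrophage markers 9 fell and 0 rose, their sum lying between 104 and 202 CPM in S100a11 shRNA and between 566 and 684 CPM in scrambled libraries. Of 9 cholangiocyte markers 8 fell and 0 rose (sum 106 to 141 CPM in S100a11 shRNA and 311 to 369 CPM in scrambled libraries), and of 10 stellate cell markers 6 fell and 0 rose (469 to 868 CPM in S100a11 shRNA and 1048 to 1512 CPM in scrambled libraries). Of 10 resident macrophage markers 1 rose and 1 fell, of 10 sinusoidal endothelial markers 1 rose and 1 fell, and of 8 lymphocyte markers 1 fell. By sign with TMM scaling, 7 of these resident macrophage markers were lower (median log2 fold change -0.48) and 3 higher. All 8 lymphocyte markers were lower (median -0.67), while 8 of the endothelial markers were higher and 2 lower (median 0.17). Of 4 tested erythroid markers 1 rose, Alas2 of haem synthesis, and of 2 tested neutrophil and 3 tested enterocyte markers 0 were called. Of 10 hepatocyte markers 3 rose, Hpd and Tat of tyrosine breakdown and the asialoglycoprotein receptor gene Asgr1 (2.22-fold, 2.50-fold and 1.52-fold higher), and 0 fell. Albumin, Alb, had a log2 fold change of 0.26 (edgeR adjusted p = 0.73). The part of cell composition in the levels of the 10 genes was not tested.

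Candidates were 9037 genes that averaged 10 CPM or more, leaving out the 10 genes and symbols of predicted models or clones. Those with profiles over the 6 libraries most like the 3 called genes were sought by the root mean square difference of centred log2 CPM. For Lcat they were Pdxk, a pyridoxal kinase (0.098), Plcxd2 (0.11) and Glul, the glutamine synthetase of pericentral hepatocytes (0.12). Those nearest to Mttp were Klhl21 (0.031), Aamp (0.043) and the peroxisomal import receptor gene Pex5 (0.044). For Apoa4 they were Ccr2, a chemokine receptor gene of recruited monocytes (0.11), Itih5 (0.21) and the collagen gene Col6a2 (0.21). Ccr2 is also 1 of the recruited macrophage markers above, at 14.6, 8.93 and 6.94 CPM in S100a11 shRNA libraries 2, 3 and 2600, against 20.7, 25.2 and 25.7 CPM in scrambled libraries 28, 30 and 31. Likeness of this kind includes the difference between the groups, so genes near a called gene tend to share its direction. Whether Apoa4 follows those cells was not tested. Within the 10 genes the nearest to Lcat was Mttp (0.25), to Mttp Apoa5 (0.093) and to Apoa4 Apoc3 (0.84), so Apoa4 resembled no other of the 10 closely.

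Among 19 other apolipoprotein and associated genes 15 were tested, of which 4 rose and 0 fell by edgeR. Over all tested genes 5.82% rose and 8.28% fell. By DESeq2 and limma voom 0 of this list fell as well. An unadjusted edgeR p under 0.05 in either direction was found for 8 (29.7% of all tested genes), and the median log2 fold change was 0.41. Without scrambled library 30 or 31 the list had 2 rises. Pon1, the paraoxonase carried on high density lipoprotein, was 2.37-fold higher (523 ± 181 in S100a11 shRNA and 221 ± 49.8 CPM in scrambled libraries, SD, n = 3 each, edgeR adjusted p = 0.019), a call that ended without library 3, 30 or 31 (adjusted p 0.060 to 0.086). Apol9b and Apol9a were 3.03-fold and 3.09-fold higher (adjusted p = 0.0060 and 0.0079), but they are near-identical copies whose reads may have been divided in ways not given. Apol11b stood at 0.78 ± 0.75 in S100a11 shRNA and 0.059 ± 0.053 CPM in scrambled libraries (adjusted p = 0.036, and 0.070 to 0.11 without library 2600, 28, 30 or 31), with 0 counts in scrambled library 28. Its S100a11 shRNA mean rested on library 2600, at 1.64 CPM against 0.46 and 0.24 CPM in libraries 2 and 3, and the log2 fold change of 3.51 was 2.46 without library 2600 and 4.25 without scrambled library 31. Apoc2, the activator of lipoprotein lipase, had a log2 fold change of -0.02 and Apom 0.30, with adjusted p of 0.97 and 0.29.

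The 21 symbols for assembly and export of very low density lipoprotein stood for 22 gene records. Of these 2 rose and 1 fell, with a median of 0.18, while over all tested genes 5.82% rose and 8.28% fell. A1cf, which encodes the RNA-binding partner of the enzyme that edits Apob mRNA, was 2.03-fold higher (565 ± 27.8 in S100a11 shRNA and 278 ± 28.9 CPM in scrambled libraries, SD, n = 3 each, edgeR adjusted p = 0.0059). Apobec1, the editing enzyme itself, was 1.51-fold lower (42.4 ± 7.21 in S100a11 shRNA and 64.0 ± 2.89 CPM in scrambled libraries, adjusted p = 0.034), a call that ended without library 3, 28, 30 or 31 (0.093 to 0.11). Thus the 2 editing genes differed in direction. Mia2, an export factor for large cargo, was 1.56-fold higher in 1 of its 2 records (adjusted p = 0.018, and 0.066 to 0.097 without library 3, 30 or 31) and had a log2 fold change of 0.50 in the other (adjusted p = 0.054). The remaining 18 symbols, among them the coat and cargo receptor genes Sar1b (0.43) and Surf4 (0.20), the chaperone P4hb (0.27) and Tm6sf2 (0.19), were not called. By library totals alone 1 record of the list rose, A1cf, and 2 fell. The rises numbered 4 with DESeq2 (19.4% of all genes called), at an adjusted p of 0.1 (21.7%) and without library 2600 (10.4%), and 1 without library 3, 30 or 31. The falls numbered 2 without library 2 and 0 without library 3, 28, 30 or 31.

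Genes that supply lipid to nascent particles gave 6 rises and 1 fall of 20 (over all tested genes 5.82% rose and 8.28% fell), with a median of 0.40. Acsl1, which activates long-chain fatty acids, was 3.92-fold higher (2140 ± 127 in S100a11 shRNA and 546 ± 74.3 CPM in scrambled libraries, SD, n = 3 each, edgeR adjusted p = 0.0028), and Ces1d, a hydrolase of stored triglyceride, 3.19-fold higher (690 ± 82.8 in S100a11 shRNA and 216 ± 37.7 CPM in scrambled libraries, adjusted p = 0.0032). Both calls held with each library left out in turn. The acyltransferase genes Mogat1, Agpat2 and Dgat2 were 1.94-fold, 1.68-fold and 1.86-fold higher (adjusted p = 0.011, 0.011 and 0.018), and the phosphatidate phosphatase Lpin2 1.93-fold higher (adjusted p = 0.031). Without scrambled library 30 none of these 4 was called (adjusted p 0.060 to 0.085). Dgat2 was not called either without library 28 (0.068), nor Lpin2 without library 3, 2600, 28 or 31 (0.057 to 0.087). Mogat2 was 3.30-fold lower at 0.28 ± 0.076 in S100a11 shRNA and 0.96 ± 0.070 CPM in scrambled libraries (adjusted p = 0.010). By library totals alone 3 of the 20 rose and 3 fell, against 7 and 2 with DESeq2. There were 8 rises and 2 falls without library 2, and 2 rises and 1 fall without library 30.

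Lipases and remodelling factors gave 3 rises and 1 fall of 17 (over all tested genes 5.82% rose and 8.28% fell), with a median of 0.29. Lpl, the lipoprotein lipase gene, was 4.80-fold lower (55.9 ± 18.5 in S100a11 shRNA and 268 ± 55.3 CPM in scrambled libraries, SD, n = 3 each, edgeR adjusted p = 0.0035), and so moved with the recruited macrophage markers, whose part in it was not tested. Angptl4, an inhibitor of that lipase, was 1.97-fold higher (adjusted p = 0.022, and 0.053 to 0.068 without library 3, 2600, 28 or 30). The proprotein convertase Pcsk6 was 1.58-fold higher (adjusted p = 0.020, and 0.062 to 0.098 without library 28, 30 or 31). Bmp1, the protease that trims the propeptide of apolipoprotein A-I, was 2.03-fold higher (adjusted p = 0.035, and 0.082 to 0.11 without library 3, 2600, 28, 30 or 31). On library totals alone 0 of the 17 rose and 3 fell; without scrambled library 30, where 3.66% of all genes were called, 0 rose. There was 1 rise without library 3, 28 or 31. There were 5 rises and 2 falls with DESeq2 and without library 2, and 6 rises and 2 falls at an adjusted p of 0.1. The hepatic lipase gene Lipc and the cholesterol exporter Abca1 had log2 fold changes of 0.56 and 0.29 (adjusted p = 0.098 and 0.26).

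Receptors and their partners gave 0 rises and 1 fall of 17 (over all tested genes 5.82% rose and 8.28% fell). Their median was 0.05, with 1 gene at an unadjusted p under 0.05 (29.7% of all tested genes). The gene that fell was Sorl1, a sorting receptor, at 17.6 ± 2.51 in S100a11 shRNA and 37.6 ± 1.23 CPM in scrambled libraries (SD, n = 3 each, 2.13-fold lower, edgeR adjusted p = 0.0046). Lrp1 and Scarb1, hepatic receptors for remnants and high density lipoprotein, had log2 fold changes of 0.46 and 0.12 (adjusted p = 0.25 and 0.63). With DESeq2 and limma voom 0 of the 17 rose as well, and with library totals alone 3 of the 17 fell.

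Transcription regulators of the apolipoprotein genes gave 7 rises and 0 falls of 29 by edgeR (over all tested genes 5.82% rose and 8.28% fell). DESeq2 and limma voom also gave 0 falls. An unadjusted edgeR p under 0.05 in either direction was found for 16 (29.7% of all tested genes), and the median was 0.36. There was 1 fall with library totals alone and 1 without library 3. Foxo1, a forkhead activator of Mttp and Apoc3, was 1.81-fold higher (103 ± 15.6 in S100a11 shRNA and 56.9 ± 6.59 CPM in scrambled libraries, SD, n = 3 each, edgeR adjusted p = 0.011). The fatty acid receptor Ppara was 1.70-fold higher (446 ± 41.0 in S100a11 shRNA and 262 ± 13.1 CPM in scrambled libraries, adjusted p = 0.012), and Creb3l3, which encodes the membrane-bound activator CREB-H of mouse Apoa4, 1.65-fold higher (395 ± 47.9 in S100a11 shRNA and 239 ± 4.09 CPM in scrambled libraries, adjusted p = 0.016). The Creb3l3 call ended without library 3, 28, 30 or 31 (edgeR adjusted p 0.057 to 0.071). Creb3l3 was higher and Apoa4 lower in the S100a11 shRNA libraries, and the part of Creb3l3 in the level of Apoa4 was not tested. The bile acid receptor Nr1h4 was 1.67-fold higher (adjusted p = 0.022), and Foxa1 and Thrb were 1.63-fold and 1.38-fold higher (adjusted p = 0.029 and 0.046). The Nr1h4 call ended without library 3, 28, 30 or 31 (edgeR adjusted p 0.062 to 0.091). That of Foxa1 ended without library 3, 2600, 28, 30 or 31 (0.052 to 0.11), and that of Thrb without library 2, 3, 28, 30 or 31 (0.062 to 0.19). None of the 29 was called upward without scrambled library 30 (3.66% of all tested genes called) or with library totals alone, and 2 were without library 3, 28 or 31 (5.12%, 7.74% and 5.57%). The count was 9 without library 2 (21.1%), 12 with DESeq2 (19.4%) and 13 at an adjusted p of 0.1 (21.7%). Hnf4a, the liver factor whose motif stands before Apoa4, had a log2 fold change of 0.45 (adjusted p = 0.12).

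**Figure D5:**
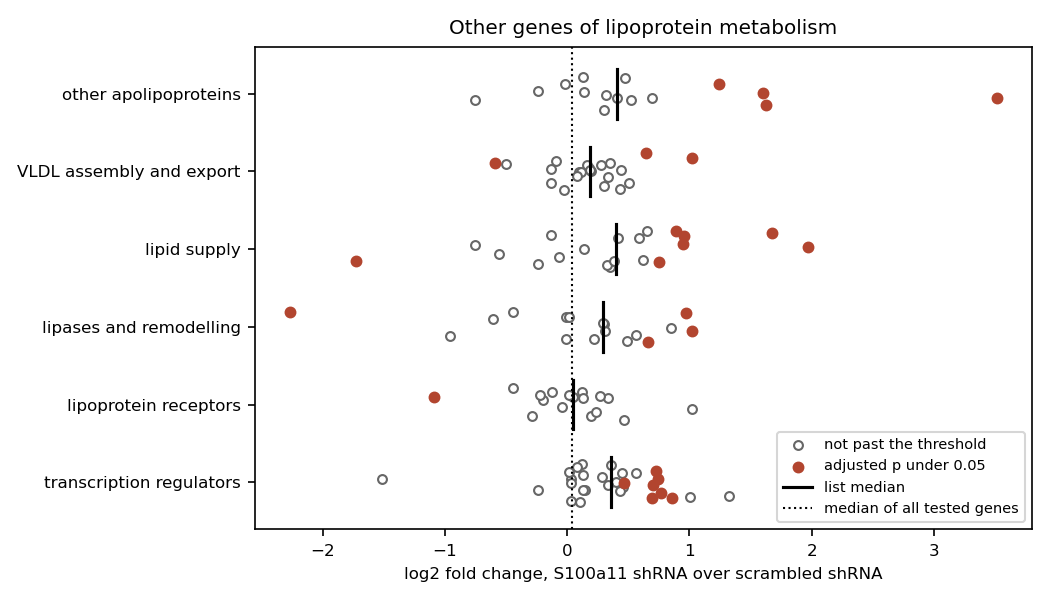
Log2 fold change, S100a11 shRNA over scrambled shRNA, of every tested gene in 6 lists of lipoprotein metabolism; filled points passed an adjusted p of 0.05, black bars are list medians and the dotted line is the median of all tested genes, 0.04. The receptors lie around that line, with a median of 0.05, and the regulators' median is 0.36.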

How the data were processed

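RNA of mouse liver was extracted with Trizol and a column kit and made into stranded total RNA libraries after ribosomal depletion, per the labels. The authors deposited raw counts per Ensembl gene for 6 libraries on mm10, per the submitters' processing notes, and the table's gene lengths in bases were used in 1 alternative. The sources used here name no aligner, counter or strand setting, so reads of a gene and an overlapping antisense gene may not be told apart. The table held 0 columns of other samples.

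Symbols came from GENCODE M21 by Ensembl identifier (42462 of 43346 genes). Genes kept by filterByExpr (minimum count 10, minimum total 15) were scaled by TMM and compared with the quasi-likelihood F test of edgeR 4.0.16 in R 4.3.3 (glmQLFit, glmQLFTest; Benjamini-Hochberg adjustment over 19352 genes; threshold 0.05). The common biological coefficient of variation was 0.223. SE is the log2 fold change divided by the square root of F. CPM are TMM-scaled. Depth was 53517387 to 78091845 counts. For S100a11 an exact permutation test was run beside it. Groups came from the labels, and the 10 genes, the lists and the tests were chosen with earlier results of these data known. Named list genes were the first 4 by p past the threshold, and further ones chosen after their values were seen; some list genes are counted but not reported here by name. The procedure was tested on simulated data.

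Alternatives were RLE and upper-quartile factors, library totals, TMM without the 20 most abundant genes, no filter, at least 1 CPM in 3 libraries, DESeq2 1.42.0, limma 3.58.1 voom, a robust prior, an adjusted p of 0.1, each library left out and other gene lengths. The legacy quasi-likelihood and the deposited length were added after seeing the data. Figures used python 3.11.15 and matplotlib 3.10.9.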

Additional observations from a re-analysis of the deposited data

How the results depend on the processing

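Of the 10 genes, 3 were called with RLE and upper-quartile factors, with TMM without the 20 most abundant genes and with a filter at 1 CPM. With library totals alone 2 were called (Lcat and Apoa4), 4 with no filter, limma voom, a robust prior, the legacy test or an adjusted p of 0.1, and 5 with DESeq2. The shares of all tested genes called were 22.6% with library totals alone, 9.22% with no filter, 13.8% with limma voom, 14% with a robust prior, 13.2% with the legacy test, 21.7% at an adjusted p of 0.1 and 19.4% with DESeq2. Leaving out 1 library gave 1 to 4: Lcat alone without library 3, 2600, 28, 30 or 31, and Lcat, Mttp, Apoa4 and Apoa5 without library 2. Of all tested genes, 5.12%, 10.4%, 7.74%, 3.66% and 5.57% were called without library 3, 2600, 28, 30 and 31, and 21.1% without library 2. The log2 fold changes of Apoa1 and Apoc3 turned to -0.024 and -0.093 with library totals alone, where all genes shifted downward; relative to the median of all genes they were 0.29 and 0.22. No other of the 10 changed sign.

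Over all genes 2728 calls became 4367 with library totals alone, 4206 at an adjusted p of 0.1 and 724 to 4176 with 1 library left out, the lowest without scrambled library 30 and the highest without library 2; the cause was not tested. S100a11 passed with library totals alone (-1.90), with limma voom (-1.89), at an adjusted p of 0.1 (-1.57) and without library 2, and its log2 fold change ran from -2.75 to -1.22 with 1 library left out. Differences in log2 ratio kept their direction with each library left out for Apoa4 to Apoa1 (-2.04 to -1.46), Apoa5 to Apoa1 (0.25 to 0.39) and Lcat to Apoa1 (0.55 to 0.83).

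No paired analysis was possible because the groups share no replicate number. Depth did not limit the 10 genes, each with at least 5474 counts per library, but Mogat2 and Apol11b lay at or under 1.64 CPM in every library. With 3 libraries a group, calls near the threshold could end when a library was left out, without a large change in effect. Mttp lost its call without library 3, 2600, 28, 30 or 31, while its log2 fold change stayed between 0.54 and 0.68. In those fits 3.66% to 10.4% of all genes were called, against 14.1% with every library and 21.1% without library 2. Whether such losses came from fewer libraries or from the library left out was not tested.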
